A study of Mus musculus with 5375 samples.

Results

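Single lung endothelial cells (ECs) were sorted from mice before and after injection of 4T1-GFP tumor cells (TCs), and 3455 such sorted cells were sequenced, among 5375 cells of all kinds. The authors deposited a raw table that holds every sorted cell and a filtered table that holds the ECs they kept. Of the 2782 sorted cells with 1000 or more genes above 0, 2479 (89.1%) were in the filtered table and the rest (10.9%) were not. These excluded cells, chosen by their absence from the filtered table, are described here against the 2479 kept cells. A further 673 sorted cells had fewer than 1000 genes and belong to neither group.

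All animals were wild-type female BALB/c mice, 8 to 12 weeks old. Day 0 animals (n = 4) received no TCs, and day 1.5 (n = 3) and day 3.5 (n = 3) animals had been injected through the vein with 4T1-GFP, a line of mouse mammary carcinoma cells labelled with green fluorescent protein. The paper states that the TCs were stained with CellTrace dye. At day 1.5, it states, mice also received a fluorescent anti-H-2Kd antibody through the vein. In all groups, live cells were gated as CD31+ and as negative for CD45, PDPN, LYVE1 and TER119, and single cells were put into 96-well plates for a modified SMART-Seq2 protocol without molecular identifiers. Day 0 animals 1 and 2 were sorted on the same day as the day 1.5 animals, and day 0 animals 3 and 4 on the same day as the day 3.5 animals. The excluded cells numbered 32, 19, 10 and 17 in the day 0 animals, 38, 67 and 33 in the day 1.5 animals and 40, 21 and 26 in the day 3.5 animals. Their summed libraries held between 3239730 and 21152721 reads per animal, and those of the kept cells between 75579647 and 129503801 reads.

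Lung capillaries hold general capillary cells (gCap), which carry progenitor functions, and alveolar capillary cells (aCap, also called aerocytes), which line the gas exchange surface. Larger vessels are wrapped by smooth muscle cells and capillaries by pericytes, jointly called mural cells, and fibroblasts build the surrounding matrix. CD31, the product of Pecam1, is also present on platelets and on many leukocytes, and mural cells adhere tightly to ECs, so that a CD31 gate is usually combined with markers of other cells.

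The exclusion itself rested on the transcripts. The study states that ECs with over 5% mitochondrial transcripts or fewer than 1000 genes were removed, and then contaminating cells by the expression of 7 immune genes (among them Cd3e, Ptprc, Itgax, Itgam, Adgre1 and the gene of CD56, Ncam1) or of 8 mural and stromal genes (Acta2, Myh11, Des, Cspg4, Pdgfrb, Pdgfra, Col1a2 and Pdpn). The threshold of expression is not given in the sources used here. The levels of these genes, and of genes that move with them, therefore chose the cells, and every contrast between excluded and kept cells is given as a description without a test. The cells with the fewest genes that lay just inside the 1000-gene limit had 1000, 1000, 1005, 1009, 1011 and 1043 genes, and those just outside it had 999, 994, 994, 994, 993 and 988.

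By their markers the excluded cells were for the most part endothelial. Pecam1 was detected (an estimated count above 0) in all excluded cells (100%) and in 2473 of 2479 kept cells. Cdh5, which encodes VE-cadherin of endothelial junctions, was detected in 87.1% of excluded cells and in 87.2% of kept cells. Cldn5, the endothelial tight junction claudin, was detected in 95.05% and 98.2%, and Egfl7, an endothelial secreted factor, in 96.7% and 98.2%. Of a list of 10 pan-endothelial genes, 98.7% of excluded cells had 3 or more above 0, and 86.8% had 3 or more at 10 or more counts. In CPM (counts summed over the cells of each animal and scaled to the same library total), Pecam1 stood at 1293 ± 409 (SD, n = 10 animals) in excluded cells and at 1597 ± 180.9 in kept cells. Cldn5 stood at 2672 ± 924 CPM in excluded and 4500 ± 1250 CPM in kept cells, and its excluded value was the lower of the pair in 9 of the 10 animals.

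**Figure D1:**
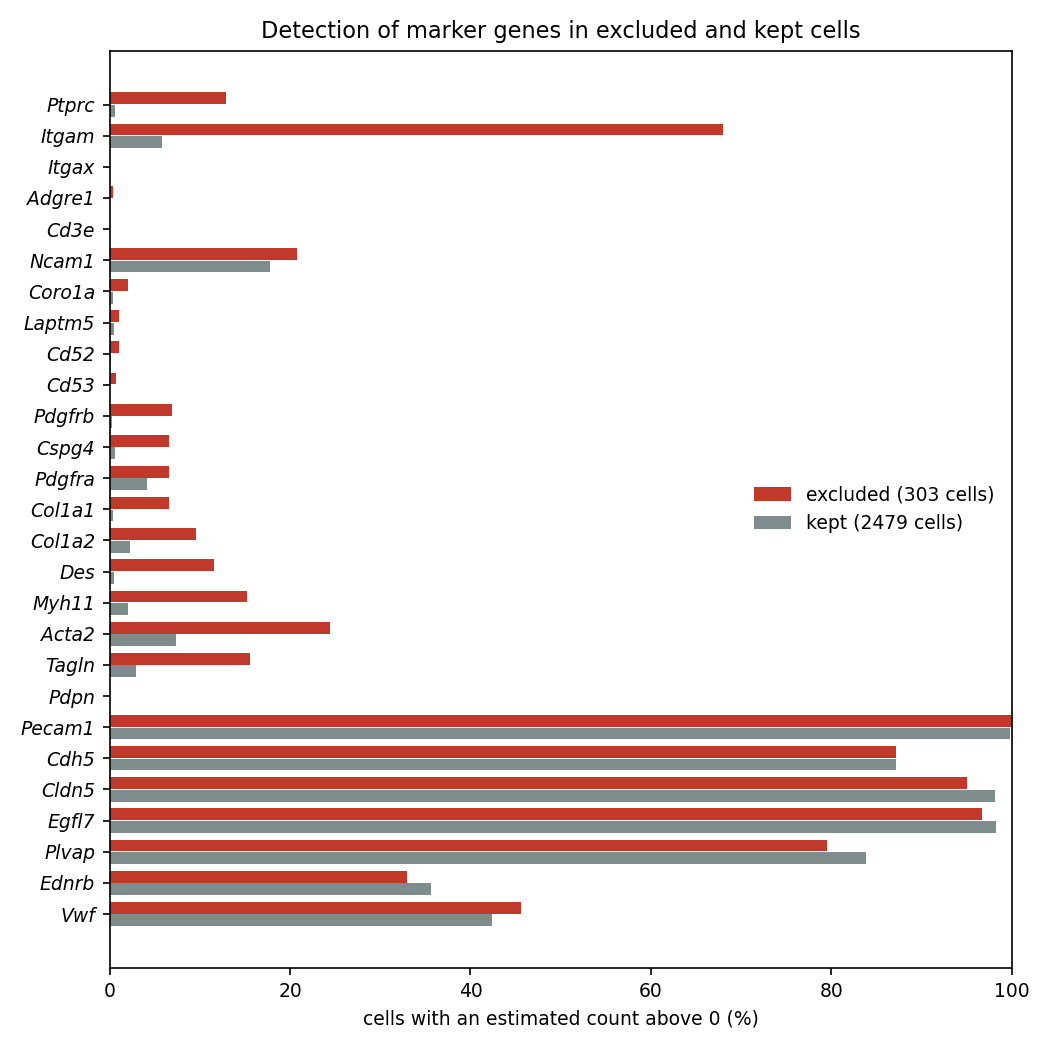
Share of cells with an estimated count above 0 for each named gene (x axis, %), in the excluded cells (red) and the 2479 kept cells (grey). Itgam differs most, at 67.99% against 5.77%, while Pecam1, Cdh5, Cldn5 and Egfl7 lie at similar heights in both.

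Reads of the study's own genes were present in nearly all excluded cells. With Ncam1 left aside, 98.3% had reads of 1 or more of the other 14 genes, against 498 of 2479 kept cells (20.1%). An immune gene was detected in 81.2% of excluded cells, a mural or stromal gene in 35.97%, both in 56 cells and neither in 4. Ncam1 separated the groups little, with detection in 20.8% of excluded and 17.8% of kept cells, and without it 78.5% of excluded cells carried an immune gene. Highest values also divided the groups: 70.96% of excluded cells lay above every kept cell for 1 or more of the 15 genes on the study's log10 scale, and 58.7% did so for Ptprc or Itgam. The reads were few in most cells. Only 76 excluded cells (25.1%) had 10 or more counts of any of the 14 genes, namely 27 for an immune and 49 for a mural or stromal gene, while in 73.3% of cells there were reads but every such count was under 10.

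Itgam accounted for most of the immune-gene cells. It encodes integrin alpha M, the CD11b chain of complement receptor 3 on myeloid and natural killer cells, and lies on chromosome 7 at 128062640-128118491 on the plus strand (GRCm38). It was detected in 67.99% of excluded cells (exact 95% interval 62.4 to 73.2, counting error only) and in 5.77% of kept cells (4.88 to 6.76). For 52.1% of excluded cells it was the only gene of the 14. Where detected it had a median of 2.36 counts and at most 22.1, and 19 cells reached 10 counts. Its summed level was 11.1, 14.8, 7.98 and 4.31 CPM in the day 0 animals, 6.74, 7.68 and 6.61 in the day 1.5 animals and 7.98, 9.54 and 6.84 in the day 3.5 animals. The kept cells of the 10 animals lay between 0.0805 and 0.342 CPM, so that the 2 sets did not overlap. In the sorted cells of the 4T1 culture, Itgam reads were found in 2.86%.

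Other leukocyte transcripts were counted in the cells with Itgam reads. Of 7 other pan-leukocyte genes (Coro1a, Laptm5, Cd52, Cd53, Lcp1, Rac2 and Cytip, of which Lcp1 and Rac2 were also detected in 26.7% and 14.6% of kept cells), 97 cells (47.1%) had none, 73 had 1 and 4 had 3 or more. The median cell had 8 of the 10 pan-endothelial genes, and Pecam1 was detected in all of them. The kept cells with Itgam reads stood close to them, with 60 cells at none of the 7 genes (41.96%) and a median of 8 pan-endothelial genes. In the cells with neither Itgam nor Ptprc reads, 75% of 68 excluded and 63.5% of 2322 kept cells had none of the 7 genes, larger shares than in the cells with Itgam reads. Excluded cells with Itgam had a median of 292301 reads and kept cells with Itgam 568634 reads. In the cells with neither Itgam nor Ptprc reads the medians were 351315 reads in excluded and 316907 reads in kept cells. The excluded cells with neither gene also include most of the cells with smooth muscle genes described below. These shares were not compared at equal depth or within a cell type. Other genes of the 15 were rarer. Itgax, an integrin of dendritic cells, Cd3e, a T cell receptor subunit, and Pdpn, the podoplanin gene of the gate, were found in 0 excluded cells. Taken as 3 cells of the total, this allows a share of cells with reads of up to 0.990%, and it sets no limit on cells that express the gene. Adgre1, the macrophage F4/80 gene, was found in 1 cell.

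Several genes without a known place in leukocytes followed Itgam within the excluded cells. Vmn1r171, a vomeronasal receptor gene on chromosome 7 at 23630722-23634370, had reads in 77 of the cells with Itgam (37.4%) and in 3 of the 97 without it (3.09%). Among kept cells the shares were 22.4% and 4.24%. Tmem30c, a relative of the flippase subunit genes, was detected in 55.3% of excluded cells with Itgam against 25.8% without, and in kept cells in 47.6% against 16.3%. The gene 9330159F19Rik was detected in 44.7% against 11.3% of excluded cells and in 28.7% against 11.3% of kept cells. Their counts were low, with medians of 7.12, 4.43 and 2.22 in the excluded cells that had them. Genes this low were common in these libraries: of 7642 genes detected in 10% or more of the cells with 1000 genes, 1121 had a median of 3 counts or fewer where detected. The source of the Itgam reads was not tested.

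Ptprc, which encodes the pan-leukocyte phosphatase CD45 that the sort gated against, was detected in 39 excluded cells (12.9%, exact 95% interval 9.32 to 17.2) and in 14 kept cells (0.565%). Its median was 1.00 count where detected, and 7 cells reached 10 counts. The summed level was 0.751, 0.169, 0.309 and 1.58 CPM on day 0, 0.913, 1.182 and 3.28 CPM on day 1.5 and 8.25, 210.1 and 22.5 CPM on day 3.5. The day 3.5 animals were thus highest, but 1 cell held 61.6% of all Ptprc counts and 5 cells 95.1%.

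Pan-leukocyte genes at 10 or more counts, 3 or more of them in the same cell, were found in 2 excluded cells and in 0 of 2479 kept cells. Both came from day 3.5 animals. The cell from animal 2 had 10566 counts of Cd79b and 6174 of Cd79a, the signalling chains of the B cell receptor, 4325 of Pax5, the B cell transcription factor, and 1230 of Ptprc, beside 9.28 of Pecam1 and 3 of Cldn5. Among other B cell genes listed, this cell had Fcmr above 10 counts, 4 counts of Blk, 1.85 of Ebf1 and 0 of Ms4a1. Of the pan-leukocyte genes it had 0 counts of Laptm5 and 1 of Cytip, with the others above 10. No gene of the pan-endothelial list reached 10 counts in it. The cell from animal 3 had 10754 counts of C1qb, 6618 of C1qc and 3195 of C1qa, the complement C1q chains made by tissue macrophages, 4058 of the lysosomal gene Laptm5 and 852 of Lcp1, an actin-bundling protein of leukocytes, with Ptprc also above 10. Of the other macrophage genes listed, it had 98 counts of Fcgr1, an Fc receptor, 10 of Adgre1 and 0 of Mertk, Mrc1, Chil3, Marco and Siglecf. It also had 1130 counts of Pecam1 and 200 of Cldn5, and 7 pan-endothelial genes at 10 or more counts. Neither cell had Itgam reads.

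**Figure D2:**
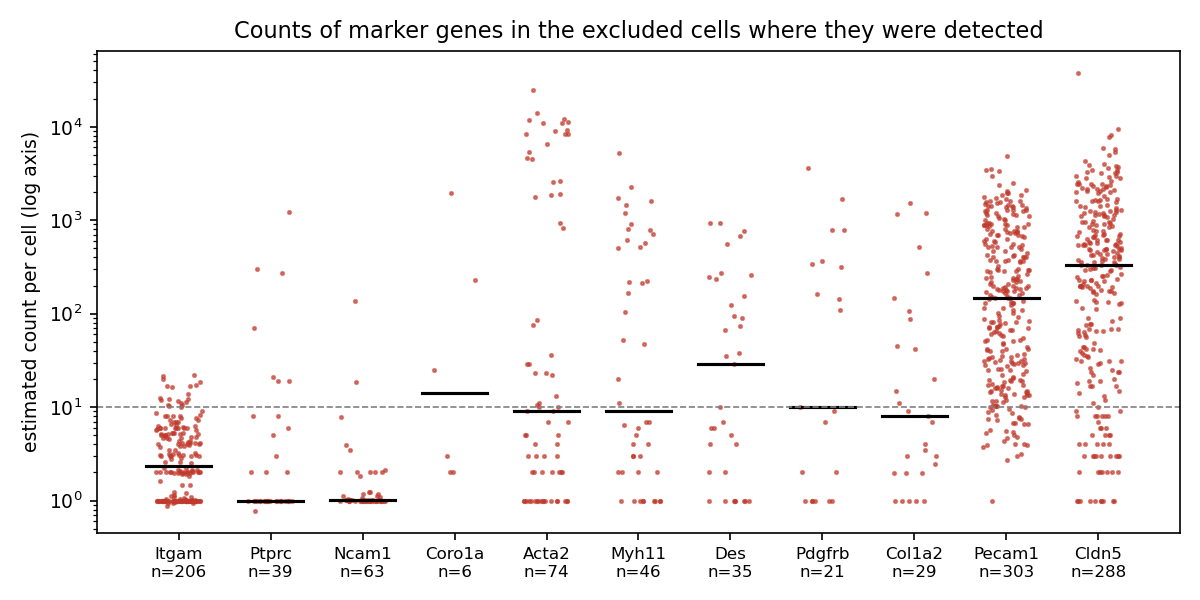
Estimated count per cell (log axis) in the excluded cells where each gene was above 0, 1 point per cell, with the number of such cells under each gene, a bar at the median and a dashed line at 10 counts. Itgam lies mostly under the line (median 2.36, highest 22.1), whereas Acta2 and Myh11 reach 24483 and 5278 counts.

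Mural and stromal genes reached higher counts than Itgam. Acta2, the smooth muscle actin gene on chromosome 19 at 34241090-34255590, was detected in 74 excluded cells (24.4%) and 7.38% of kept cells, and reached 10 counts in 36 and 16 cells. Myh11, the smooth muscle myosin heavy chain, was detected in 46 excluded cells, Des, the intermediate filament desmin, in 35, Col1a2, a collagen I chain, in 29, Pdgfrb, the growth factor receptor of mural cells, in 21, and Pdgfra, its fibroblast counterpart, and Cspg4, the NG2 proteoglycan of pericytes, in 20 each. Col1a1, the other collagen I chain, was detected in 20 excluded and 9 kept cells. Summed Acta2 was 452, 0, 2867 and 1578 CPM in the day 0 animals, 1689, 2407 and 6941 CPM in the day 1.5 animals and 82.01, 614 and 280.4 CPM in the day 3.5 animals. The kept cells of the 10 animals lay between 0.0541 and 12.04 CPM.

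These reads sat in few cells. With 3 or more smooth muscle genes at 10 or more counts, 24 excluded cells (7.92%) and 1 kept cell stood out, and the 24 cells held 95.7% of all Acta2, 97.1% of Myh11, 98.03% of Des and 94.3% of Cspg4 counts of the excluded cells. Their median counts were 7390 for Acta2, 3730 for Myl9, a myosin light chain, 3211 for Tpm2, a muscle tropomyosin, 1138 for Tagln, transgelin, and 948 for Lmod1, a smooth muscle actin nucleator. Pecam1 was detected in all 24, at a median of 10.8 counts and between 3.73 and 208.1, and summed to 41.9 CPM against 1572 CPM in the excluded cells without 3 genes at 10 counts of the pan-leukocyte, smooth muscle, pericyte or fibroblast list. Ptprc was found in 0 of the 24 cells and Itgam in 4, at up to 1.99 counts. Only 6 of the 24 had 3 or more pan-endothelial genes at 10 or more counts. The median of 608216 reads per cell lay above the 272913 reads of those other cells.

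Pericyte and fibroblast content was rarer. Of 11 excluded cells with 3 or more pericyte genes at 10 or more counts, 10 were also among the 24 cells with smooth muscle genes. Of these 10, 2 came from day 3.5 animals: the cell of animal 2 had 0 counts of Acta2 beside 997 of Higd1b, 617 of Cox4i2 and 537 of Cspg4, and the cell of animal 3 had 827 of Acta2 beside 5478 of Cox4i2, 3533 of Higd1b and 783 of Pdgfrb. The pericyte-gene cell outside the 24, from day 0 animal 4, had 4032 counts of Higd1b and 875 of Cox4i2, both typical of lung pericytes, 1707 of Pdgfrb and 0 of Acta2. Of 11 cells with fibroblast content, 6 were among the 24 and 5 were not. A cell from day 3.5 animal 3 had 60837 counts of Mfap4, a microfibril protein of alveolar fibroblasts, 58806 of Inmt, a methyltransferase abundant in them, and 533 of Pdgfra, beside 13.7 of Pecam1. A cell from day 1.5 animal 1 had 1323 counts of Mfap4 and 2612 of Inmt together with 734 of Pecam1 and 4271 of Cldn5. Dcn and Lum, which encode matrix proteoglycans of adventitial fibroblasts, were rarer: Dcn reached at most 2.27 counts in any excluded cell, and Lum 10 or more in 1 cell. Lymphatic content was found in 1 cell, from day 0 animal 2, with 62002 counts of the chemokine Ccl21a and 1 of Prox1, the lymphatic transcription factor. No excluded cell had 3 epithelial tumor genes at 10 or more counts. Epcam was detected in 3 excluded cells and Krt18 in 1, against 94.3% and 98.96% of cultured 4T1 cells.

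The excluded cells without leukocyte, smooth muscle, pericyte or fibroblast content, among which the lymphatic cell was left, were set beside the kept cells. Their pooled Pecam1 level was 1572 CPM against 1580 CPM in kept cells, and that of Cldn5 was 3197 against 4486 CPM. Of them 73 came from day 0 animals, 81 from day 3.5 animals and the rest from day 1.5 animals. Over all excluded cells, 89.8% had 3 or more of 13 gCap genes and 98 cells (32.3%) 3 or more of 12 aCap genes. Plvap, a gCap gene of the diaphragms of fenestrae and caveolae, stood at 1164 ± 418 CPM (n = 10) in excluded and 1056 ± 227.6 CPM in kept cells. Ednrb, the endothelin receptor that marks aCap, lay between 42.2 and 426 CPM in excluded and 171.2 and 365.5 CPM in kept cells, and Vwf, the clotting factor gene of large vessels, stood at 603 ± 589 and 493 ± 164.3 CPM.

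Across 9171 genes with a mean of 10 CPM or more, 31 were higher in excluded than in kept cells in all 10 animals and 1.37% were lower in all 10, and 64.4% had a median difference within 1 on the log2(CPM + 1) scale. Of the genes at any level that were higher in excluded cells in all 10 animals, the largest median differences were those of muscle genes: Myl9 at 1234 ± 1159 against 3.46 ± 4.70 CPM, Tpm2 at 891 ± 922 against 1.07 ± 1.63 CPM and Fxyd1, a sodium pump regulator, at 289.5 ± 334.7 against 0.174 ± 0.319 CPM. Next came Itgam at 8.36 ± 2.90 against 0.203 ± 0.0811 CPM, Dtna, a dystrobrevin, at 15.005 ± 16.6 against 0.192 CPM, Vmn1r171 at 9.26 ± 4.71 against 0.605 CPM and Rac2, a leukocyte GTPase, at 24.5 ± 27.6 against 4.68 CPM. Tmem30c, Tef, Txndc11, Olfr1191-ps1, Ptprc, 9330159F19Rik, Tepsin and Ticam2 completed the 15 of this ranking, of which Itgam, Vmn1r171, Olfr1191-ps1 and 9330159F19Rik lay under 10 CPM in both sets. Acta2 and Actg2 had larger median differences than Itgam (9.01 and 5.44 against 2.79 on the log2(CPM + 1) scale) but were higher in 9 and 8 of the 10 animals.

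The 15 genes with the largest difference among those lower in excluded cells in all 10 animals were each detected in at most 19.6% of kept cells. Scgb3a1, a secretoglobin of airway epithelium, stood at 82.4 ± 178.1 CPM in excluded and 379.5 ± 296.9 CPM in kept cells, Ankrd37 at 24.8 ± 36.4 against 91.6 ± 36.7 CPM and Wbp1 at 15.6 ± 20.4 against 65.2 ± 33.4 CPM. Morn2, Zfp35, Pigt, Lbx2, Traf3, Cep19, Agk, Mvb12b, Dolpp1, Thyn1, Dexi and Gtf3c4 were the others named by the same rule, all under 50 CPM in kept cells. An abundant gene was also lower in all 10 animals: B2m, the light chain of MHC class I, stood at 5781 ± 1554 CPM in excluded and 10586 ± 2557 CPM in kept cells and was detected in 99.7% and 99.6% of them. B2m lies outside that naming rule and is one of the housekeeping genes whose mean count the study used to scale each cell. Its level may therefore not be separate from the choice of cells. The excluded sums rest on 10 to 67 cells per animal and the kept sums on 180 or more, and for several of these genes the share of cells with reads differed little, as for Scgb3a1 with 16.5% of excluded and 19.6% of kept cells.

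Clustering of the excluded cells gave 10 clusters of 47 to 18 cells. Genes that lead a cluster were used to form it, so they are given as a description. Cluster 7 (23 cells) was smooth-muscle-like: all 8 smooth muscle genes were detected in at least 50% of its cells, and Actc1, Tpm2, Acta2, Ramp1, Actg2, Cnn1, Aspn, Abhd11os, Rrad and Tagln led it. The smooth muscle list summed to a mean of 21106 CPM per cell there and 265.5 CPM elsewhere, the pan-endothelial list to 1108 and 10792 CPM. Pericyte genes were present too: their list summed to 2790 CPM against 225.1 CPM elsewhere, and 14 of the 23 cells had 3 or more of them. The cells of cluster 7 came from 9 animals. Cluster 9 (18 cells) was large-vessel-like, led by Cytl1, Apoe, Mgp, Plac8, Tceal8, Eif3l, Vwf, Prdx6, Bgn and Sec13, of which 5 belong to the large-vessel list of 12 genes. That list summed to 12118 CPM in it and 1005 CPM elsewhere. The fibroblast list averaged 11219 CPM in the same cluster with a median of 0, and the cell with 58806 counts of Inmt lay in it.

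Cluster 4 (35 cells) held aCap genes. Ednrb was among its leading genes beside Gnao1, Mest, Trim16, Rcsd1, Lmo7, Piezo2, Abcd4, Tln2 and Emp2, and Ednrb, Alpl, Tbx2, Prdm1 and Enho were each detected in at least 50% of its cells. The aCap list summed to 4611 CPM against 812 CPM elsewhere, and the gCap list to 1199 against 8809 CPM. Itgam was detected in 27 of these 35 cells and in 36 of the 43 cells of cluster 2, where the gCap list summed to 16835 CPM against 6457 CPM elsewhere. Over the 10 clusters Itgam was least frequent in cluster 7, with 3 of 23 cells. Cluster 8 (20 cells) had a median of 48730 reads per cell, and 16 of its cells had fewer than 100000 reads. Predicted genes led it, among them Gm21738, Gm10720, Gm10717, Gm10801 and Gm10800, together with Ccr2, a chemokine receptor. It was given no name. The other clusters had no list gene among their 10 leading genes and were not named.

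**Figure D3:**
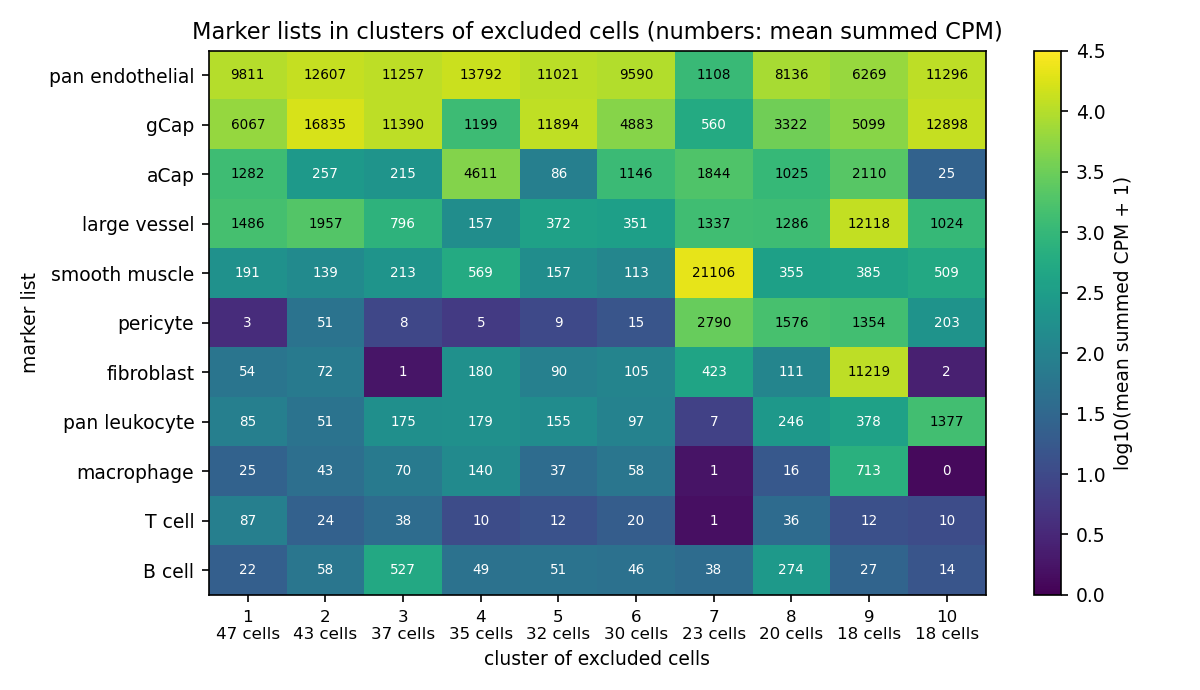
Marker lists (y axis) in the 10 clusters of excluded cells (x axis, with cells per cluster). Each number is the mean over cells of the summed CPM of the list, and color gives log10 of that mean plus 1. Smooth muscle genes peak in cluster 7 (21106 CPM), large-vessel genes in cluster 9 (12118 CPM) and aCap genes in cluster 4 (4611 CPM).

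Library quality was compared by genes, reads, mitochondrial share and housekeeping genes. The excluded cells had a median of 2781 genes and 298897 reads per cell, and the kept cells 2493 genes and 334250 reads. Fewer than 1500 genes were found in 20 excluded cells (6.60%, exact 95% interval 4.08 to 10.01) and in 386 kept cells (15.6%, 14.2 to 17.1). Fewer than 100000 reads were found in 46 excluded cells (15.2%, 11.3 to 19.7) and 13.4% of kept cells (12.1 to 14.8). Over 5% of reads from mitochondrial genes was found in 10 excluded cells (3.30%) and 86 kept cells (3.47%). With the study's log10 scale computed here from the counts, 0 cells of either group exceeded 5%, so that no excluded cell crossed that limit on this scale. At most 3 housekeeping genes were detected in 36 excluded cells (11.9%) and 12.5% of kept cells. The mean count of the detected housekeeping genes, by which the study scaled each cell, had a median of 454 in excluded and 810 in kept cells, and it was the lower of the pair in all 10 animals.

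Of the 5 excluded cells without reads of any of the 14 genes, 3 stood at the gene limit, with 1000, 1000 and 1005 genes, and had 1, 3 and 2 housekeeping genes. These came from day 0 animals. The other 2 had 3812 genes (day 1.5 animal 1, the cell with Mfap4, Inmt and Cldn5 described above) and 1369 genes (day 3.5 animal 1).

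By day, the question was whether the excluded cells became more frequent or changed in kind after TC injection. Their share of the cells with 1000 or more genes was 12.6%, 7.76%, 4.52% and 8.63% in the day 0 animals, 10.8%, 18.6% and 8.97% in the day 1.5 animals and 13.1%, 8.97% and 10.6% in the day 3.5 animals. The days overlapped. Their means were 8.38% ± 3.32 (SD, n = 4), 12.8% ± 5.12 (n = 3) and 10.9% ± 2.07 (n = 3). Day 1.5 differed from day 0 by 4.42 percentage points (two-sided exact permutation p = 0.257, adjusted over the 3 day comparisons 0.429), day 3.5 from day 0 by 2.49 points (exact permutation p = 0.286, adjusted 0.429) and day 3.5 from day 1.5 by -1.93 points (exact permutation p = 0.7, adjusted 0.7). The smallest p that 4 animals against 3 allow is 0.0286, and 3 against 3 allow 0.1. Within the sort day of the day 1.5 animals the difference from day 0 was 2.62 points, and within that of the day 3.5 animals 4.29 points, where the days did not overlap (exact permutation p = 0.7 and 0.2, 0.1 being the smallest possible). Day 3.5 and day 1.5 animals were sorted on different days, and from these animals alone sort day and time after injection cannot be told apart. The day 0 animals, sorted on both days, link them only if the sort day acted alike on every group, which was not tested.

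On day 0 the kind of excluded cell differed between the sort days. The share with an immune gene was 90.6% and 94.7% in the day 0 animals sorted with the day 1.5 animals and 60% and 70.6% in those sorted with the day 3.5 animals. It was 71.1%, 74.6% and 81.8% on day 1.5 and 90%, 90.5% and 84.6% on day 3.5. The share with a mural or stromal gene was 12.5% and 10.5%, then 40% and 58.8%, in the same day 0 animals, 39.5%, 50.7% and 48.5% on day 1.5 and 32.5%, 19.05% and 26.9% on day 3.5. Pooled means for mural or stromal genes were 30.5% ± 23.2 (n = 4), 46.2% ± 5.96 (n = 3) and 26.2% ± 6.76 (n = 3). Day 3.5 stood 20.1 points below day 1.5 without overlap (-20.1, exact permutation p = 0.1, the smallest possible, adjusted over 9 comparisons 0.386), and for immune genes it stood 12.5 points above it (exact permutation p = 0.1, adjusted 0.386). None of the 9 comparisons passed, and those with day 0 overlapped.

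Within sort days the signs were opposite. Since only 4 excluded cells had neither kind of gene and 56 had both, one share largely fixes the other, and the contrasts of the 2 shares are not separate evidence. Against day 0 animals of the same sort day, the mural or stromal share was 34.7 points higher on day 1.5 and 23.3 points lower on day 3.5 (-23.3), and the immune share was 16.8 points lower on day 1.5 (-16.8) and 23.1 points higher on day 3.5. All 4 of these contrasts were without overlap (3 against 2 animals, exact permutation p = 0.1 each, the smallest possible, adjusted 0.15). In the day 0 animals sorted with the day 1.5 animals 6.25% and 10.5% of excluded cells had fewer than 100000 reads, and in those sorted with the day 3.5 animals 40% and 17.6%. This share was 13.2%, 8.96% and 21.2% in the day 1.5 animals and 20%, 23.8% and 15.4% in the day 3.5 animals. The genes counted are also those that chose the cells. With each cell thinned to 100000 reads and shallower cells left out (84.8% of cells left), the immune share was 57.4% ± 20.02, 52.96% ± 3.90 and 62.4% ± 11.3 on days 0, 1.5 and 3.5 (SD, n = 4, 3 and 3), and the mural or stromal share 28.97% ± 24.3, 39.3% ± 9.47 and 23.2% ± 10.9. Day 3.5 and day 1.5 then overlapped for both shares (differences of 9.44 and -16.1 points, exact permutation p = 0.2 each, adjusted 0.874). The contrasts within sort days were not computed at equal depth.

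**Figure D4:**
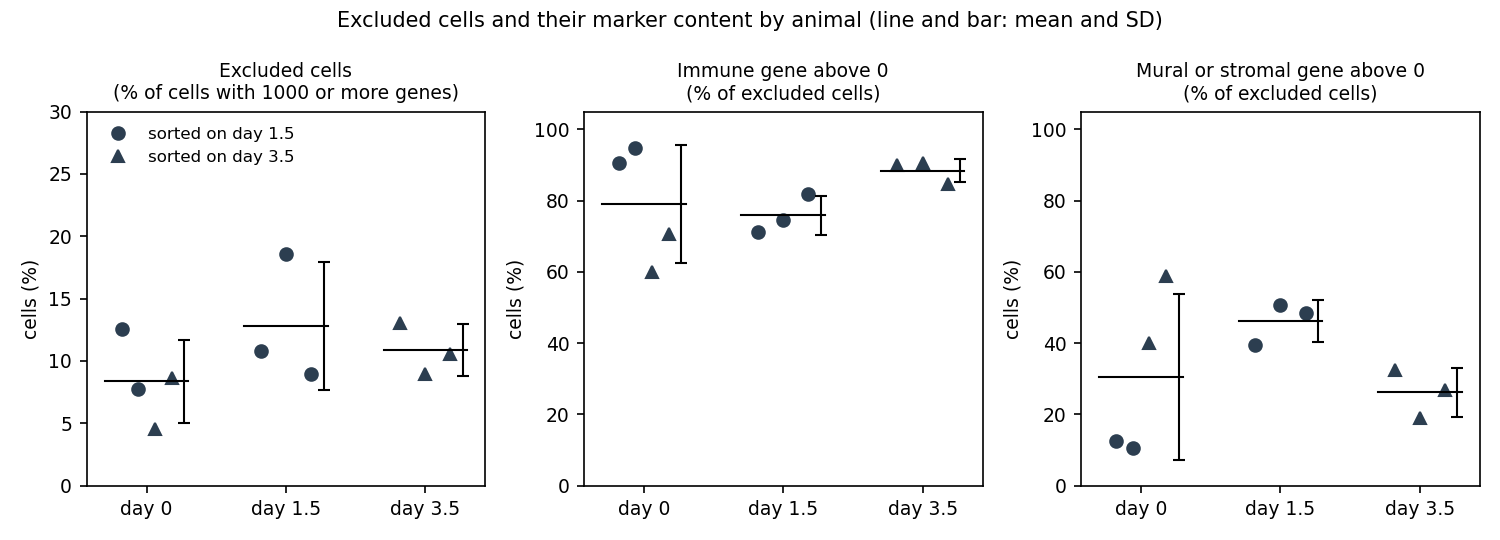
Each point is 1 animal, circles for animals sorted on day 1.5 and triangles for those sorted on day 3.5, with the mean and SD of each day. From left to right, excluded cells as a share of cells with 1000 or more genes, and the shares of excluded cells with an immune or with a mural or stromal gene (y axes, %). The day 0 circles (90.6% and 94.7%) and triangles (60% and 70.6%) lie apart in the immune panel.

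Excluded cells with 3 or more smooth muscle genes at 10 or more counts, 10 of which also met the pericyte criterion, were most frequent on day 1.5. Of the 24 cells 3 came from day 0, 18 from day 1.5 and 3 from day 3.5 animals. As a share of the cells with 1000 or more genes they made up 0.394%, 0%, 0.452% and 0.508% in the day 0 animals, 1.42%, 2.22% and 1.36% in the day 1.5 animals and 0.327%, 0.427% and 0.407% in the day 3.5 animals. All 3 day 1.5 animals lay above the 7 others, including both day 0 animals of the same sort day. Without the 10 cells that also met the pericyte criterion there were 1, 12 and 1 cells on days 0, 1.5 and 3.5, at 0.855%, 1.67% and 0.815% in the day 1.5 animals and at most 0.394% in the others. Both comparisons were chosen after values were seen and carry no test. Itgam detection, taken over excluded and kept cells together, overlapped between all 3 days: 12.99%, 12.7%, 10.4% and 8.63% on day 0, 10.5%, 13.6% and 11.96% on day 1.5 and 15.4%, 12.8% and 15.4% on day 3.5. Within the sort day of the day 3.5 animals, day 0 (10.4% and 8.63%) lay below day 3.5 without overlap.

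Among immune lineages, 3 or more genes of a list were found in 20 or more excluded cells only for the monocyte list, with 44.2% of cells. Kept cells reached this in 930 of 2479 (37.5%). Capillary ECs are themselves known to express several of its genes, such as Ly6c2 and Ace. Its share of excluded cells was 42.3% ± 12.9, 45.8% ± 6.07 and 48.2% ± 12.05 on days 0, 1.5 and 3.5 (n = 4, 3 and 3), and 0 of 3 comparisons passed (exact permutation p = 0.686, 0.457 and 0.9, each adjusted 0.9). In kept cells of the same animals the share lay between 21.2% and 30% on day 0, 29.4% and 49.3% on day 1.5 and 39.8% and 46.01% on day 3.5. For neutrophil, dendritic, T cell and B cell lists 3, 4, 1 and 3 excluded cells had 3 or more genes, and for natural killer cells none did.

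Gene levels by day were compared over the summed excluded cells of each animal. With edgeR's quasi-likelihood test, 0 of 12975 genes (0%) passed an adjusted p of 0.05 in each of the 3 comparisons. At an unadjusted p under 0.05 there were 1069 genes (8.24%) for day 1.5 against day 0, 1290 (9.94%) for day 3.5 against day 0 and 480 (3.70%) for day 3.5 against day 1.5. DESeq2, which tested 18901 genes, called 2.01%, 2.93% and 0.667% in the same comparisons, and limma on mean log10 values called 4, 0 and 0 genes. The number of calls thus rested on the tool, and no gene below is counted as changed.

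The gene with the smallest p was Plac8, which large-vessel ECs and monocytes express. It stood at 0.167, 0, 0.309 and 0 CPM in the day 0 animals, at 720, 68.03 and 188.8 CPM in the day 1.5 animals and at 209.3, 150.8 and 29.3 CPM in the day 3.5 animals. No injected animal overlapped a day 0 animal, and the adjusted p of edgeR was 0.144 for day 1.5 and 0.336 for day 3.5. Col4a1, a collagen IV chain of basement membranes, stood at 337.8, 314.1, 183.04 and 257.2 CPM on day 0, at 1502, 1530 and 1152 CPM on day 1.5 and at 1135, 847 and 888 CPM on day 3.5. Its log2 fold change on day 1.5 was 2.18 (SE 0.446, edgeR adjusted p = 0.524). Aamdc and Ubl4a were at or below 0.701 CPM in every day 0 animal and at or above 17.8 CPM in every injected animal, and Ilvbl had 0 reads on day 0 and stood at 97.1, 15.7 and 89.7 CPM on day 1.5.

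In the other direction, Fmo1, a monooxygenase, stood at 714, 2141, 1976 and 1353 CPM on day 0 and at 437, 225.4 and 448 CPM on day 1.5 (log2 fold change -2.19, SE 0.542, edgeR adjusted p = 0.524). Selenop, the plasma selenium carrier, stood at 769, 865, 803 and 563 CPM on day 0 and at 204.9, 121.3 and 129.6 CPM on day 3.5, and Itga1, a collagen-binding integrin, at 1123, 1143, 2059 and 1117 CPM and at 457, 228.5 and 402 CPM. Both had an edgeR adjusted p of 0.449. Slc25a36, Rfc2, Rrp9 and Tom1l1 had the next smallest p on day 1.5, and 2310039H08Rik, Tmem65 and Gm18541 on day 3.5. Tmem255b and Nudt4 were the other genes named for higher values on day 3.5. Between day 3.5 and day 1.5 the smallest p fell on Myl4, Ogfod1, Slc1a1, Ucp2 and 2700099C18Rik with higher values on day 3.5, and on Slc52a3, Mageh1, Ntf3, 2310039H08Rik and Snx8 with lower ones, at adjusted p of 1.00 each.

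Marker lists were read in the same fit, with the animals of 2 days called not overlapping when every animal of one lay above every animal of the other. Over all genes this held for 7.86% of genes for day 1.5 against day 0, 6.57% for day 3.5 against day 0 and 10.4% for day 3.5 against day 1.5. Of 8 smooth muscle genes, 4 (Acta2, Actg2, Lmod1 and Mylk) were lower without overlap on day 3.5 than on day 1.5, at a median log2 difference of -2.23 for the list against 0.00871 for all genes, and 0 of 8 passed. Lmod1 stood at 412, 421 and 658 CPM on day 1.5 and at 292.2, 0 and 0 CPM on day 3.5. Of 13 gCap genes, 3 were lower without overlap on day 1.5 than on day 0 (median -1.06 against -0.0940 for all genes) and 1 on day 3.5 (median -0.722 against -0.0664). Among 10 pan-endothelial genes no animal sets were separate on day 1.5, and 1 gene was higher and 1 lower on day 3.5. Of the immune genes of the study 3 of 7 were expressed enough to be tested, and Ptprc alone was separate, with higher values on day 3.5. Of 8 tested interferon response genes none was separate between day 0 and either later day. Ifitm3, an interferon-induced membrane protein, stood at 5597, 3943, 2451 and 8220 CPM on day 0, at 11140, 9907 and 8176 CPM on day 1.5 and at 17217, 10481 and 8103 CPM on day 3.5.

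Restricted to the excluded cells with an immune gene, 0 of 12146 genes (0%) passed in each comparison by edgeR, with 1016 (8.36%), 1159 (9.54%) and 430 (3.54%) at an unadjusted p under 0.05. The animals of the 2 days did not overlap for 7.62%, 6.31% and 10.1% of genes. DESeq2, with 18046 genes tested, called 1.83%, 2.65% and 0.709%, and limma on mean log10 values called 0 in each. Without day 3.5 animal 1 edgeR called 2 genes for day 1.5 against day 0, and without day 0 animal 4 it called 1. Lgals1, the galectin-1 gene, stood at 0, 0.340, 0 and 0 CPM on day 0, at 553, 184.1 and 396 CPM on day 1.5 and at 33.4, 328.1 and 400.05 CPM on day 3.5 (edgeR adjusted p = 0.103 and 0.187). Rarres2, which encodes chemerin, was at or below 0.234 CPM on day 0 and stood at 1003, 506 and 277.99 CPM on day 1.5, and Sparcl1, a matrix protein of vessels, at or below 3.05 CPM and at 268.6, 389 and 246.7 CPM. Acta2 stood at 0.0931, 0, 0 and 5.39 CPM on day 0, at 1147, 1598 and 970 CPM on day 1.5 and at 0.521, 632 and 0 CPM on day 3.5 in these cells. Day 0 and day 1.5 did not overlap for it here, whereas they did over all excluded cells, and its part in the other values was not tested. Itgam itself stood between 5.86 and 17.3 CPM on day 0, 9.21 and 10.8 CPM on day 1.5 and 9.53 and 9.85 CPM on day 3.5. Other genes named for small p did not pass either. Mrpl30, a mitochondrial ribosomal protein, stood at 478.8, 367.6, 331.4 and 331.98 CPM on day 0 and at 35.9, 83.2 and 43.1 CPM on day 1.5 (edgeR adjusted p = 0.489). Apoe, apolipoprotein E, stood at 1.68, 0.681, 0 and 0.234 CPM on day 0 and at 15.8, 175.5 and 3825 CPM on day 3.5 (edgeR adjusted p = 0.333). Cbr2, a carbonyl reductase named for lower values on day 3.5, stood at 5307 CPM in 1 day 0 animal and at 1.96, 0 and 2.11 CPM in the other 3.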

How the data were processed

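Lung ECs of 10 mice were sequenced as single cells, and the animal was the replicate. The authors deposited estimated counts per gene and cell, made with Salmon 0.7.2 on GRCm38 per the labels (the annotation release is not given in the sources used here), without molecular identifiers. The authors also deposited a table of kept cells as log10 of 10000 times the count over the mean of the detected housekeeping genes, plus 1. Its cells were matched to the raw columns by name and value, and 0 value columns were left unused. Groups came from the sample labels, and sort days from the deposited cell annotation. Excluded cells were the raw columns with 1000 or more genes above 0 outside the kept table. With 1 cell sorted per well, no doublet caller was run. Shares were compared over animals with exact permutation tests (scipy 1.17.1) and Benjamini-Hochberg adjustment. Gene tests by day used edgeR 4.0.16 on summed, rounded estimated counts per animal with TMM scaling and filterByExpr, checked on simulated counts. DESeq2 1.42.0 and limma 3.58.1 were alternatives. Clusters came from scanpy 1.11.5 (2000 variable genes, 10 components, Leiden resolution 1). Gene positions are those of GENCODE annotation of GRCm38. Intervals are exact (Clopper-Pearson), treat cells as independent and cover counting error only, not the differences between animals. PCR copies of reads cannot be told apart. The cells, lists and tests were chosen with earlier results of these data known. Genes named are those of the study's lists, the 15 with the largest median difference in each direction among genes with the same sign in all 10 animals, up to 10 called genes or otherwise the 5 of smallest p in each direction for each day comparison, the 10 leading genes of each cluster and up to 4 members of each list by level. B2m was named outside these rules, and genes named for single cells and with Itgam were chosen after their values were seen. The summed libraries of excluded cells held 3239730 to 21152721 reads per animal, which limits gene-level precision. The labels do not say that the animals of a day were littermates or shared a cage. A gene of the study's immune list entered the counts of that list and is not reported here by itself.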

Additional observations from a re-analysis of the deposited data

Results flagged for a closer look

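Within the day 0 animals, 5 genes of the study's lists had an animal far from the other 3 in summed CPM of excluded cells, measured as the gap to the nearest animal over the whole range of the 4. Ncam1 was high in animal 2 (gap 0.943), Des in animal 3 (0.899), and Pdgfrb (1.00), Col1a2 (0.914) and Pdgfra (0.969) in animal 4. Over the 23 groups examined, a chance rate of about 1 in 20 would hold only for normally distributed values. These sums can rest on few cells: Pdgfrb stood at 0.0835, 0, 0 and 929 CPM in the 4 animals. Over all excluded cells, 1 cell held 42.9% of the Pdgfrb counts. How often chance gives such gaps in these sums was not tested, so the 5 gaps are a description only.

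The share of excluded cells with an immune gene differed from that of day 0 animals of the same sort day by -16.8 percentage points on day 1.5 and by 23.1 points on day 3.5, and the share with a mural or stromal gene by 34.7 and -23.3 points. In all 4 contrasts every later animal lay on the same side of both day 0 animals. The difference between the sort days was not tested.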

How the results depend on the processing

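No share difference between days passed its threshold under any alternative tried (lowest adjusted p 0.15), and 16 reversed in sign, 8 of them on leaving out an animal. With detection set at 10 counts, the difference in immune-gene share between day 3.5 and day 0 was -0.509 points, that of cells with neither kind of gene 2.38 (day 3.5 minus day 0) and 5.39 points (day 3.5 minus day 1.5), and that of the monocyte list -1.88 points (day 3.5 minus day 1.5). With cells thinned to 100000 reads (84.8% of cells left), neither-gene differences were 0.815, 6.45 and 5.63 points, and with a minimum of 1500 genes the first was 0.926. The neither-gene class held 4 cells.

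Leaving out 1 animal at a time, the excluded share differed by 1.52 to 6.34 points (day 1.5 minus day 0), 1.21 to 3.90 (day 3.5 minus day 0) and -3.85 to 0.975 (day 3.5 minus day 1.5). In the same order, the immune-gene share ranged from -9.48 to 2.09, 3.05 to 14.6 and 10.1 to 15.5, the mural or stromal share from 9.13 to 25.2, -11.0 to 5.15 and -23.5 to -16.5, the neither share from -3.88 to -1.92, -4.76 to -2.80 and -1.32 to 0, and the monocyte share from -0.771 to 9.42, -0.707 to 11.9 and -4.22 to 7.51. 

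For genes by day, leaving out 1 animal gave 0% to 0% called in all excluded cells, and in immune-gene cells 0% to 0.0153% (day 1.5 against day 0, 2 genes without day 3.5 animal 1 and 1 without day 0 animal 4) and 0% in the other comparisons. DESeq2 called 2.01%, 2.93% and 0.667% of genes tested, and 1.83%, 2.65% and 0.709% in immune-gene cells. Without a filter on low counts edgeR called 1 gene (0.00454%) for day 1.5 against day 0, and in immune-gene cells 5 (0.0235%) and 8 (0.0375%) for day 1.5 and day 3.5 against day 0. limma on mean log10 values called 4 (0.0308%) for day 1.5 against day 0 in all excluded cells and 0 elsewhere, and gave Atxn7l3b in immune-gene cells a value of 0.163 with the sign reversed. Of 1004 values of single named genes 935 were the same in direction and call, 68 passed only in the alternative (55 of them with DESeq2) and 1 reversed. RLE scaling in place of TMM shifted the median of all genes from -0.0940 to -0.310 (day 1.5 against day 0) and from -0.0664 to -0.230 (day 3.5 against day 0) on the log2 scale. The cause of these differences was not tested. Chosen after seeing the data were the contrasts within a sort day, Ncam1 left out of the immune list, and edgeR fits with a sort day term, without cells with 10 counts of a mural or stromal gene and without cells under 100000 reads, and these fits called 0 genes.

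No paired analysis was possible because each animal gave cells of 1 day only and replicate numbers name different animals. The fit with the replicate block was therefore not run, nor was the gene test on the 4 cells with neither kind of gene, since no animal had 5 of them.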

Other observations

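Among the 673 sorted cells with fewer than 1000 genes, which entered no comparison, Pecam1 was detected in 515 (76.5%), Itgam in 8 (1.19%) and Ptprc in 5. A mural or stromal gene reached 10 counts in 4 of them, and 1 cell had 3 or more smooth muscle genes at 10 or more counts. These cells had a median of 583 genes and 3127 reads.

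Cycling genes were found in 3 excluded cells at 3 or more genes with 10 or more counts, all from day 3.5. A cell from animal 3 had the most genes of all excluded cells (6284), with 5077 counts of Ube2c, 2622 of Cdk1 and 309.4 of Mki67 beside 8133 of Cldn5, and neither Ptprc nor Itgam reads.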
